A study of Mus musculus with 18 samples.

Results

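The DNA replication and G1/S genes are 42 mouse genes that act in origin licensing, at the replication fork, in nucleotide supply and in the control of entry into S phase. They were taken by name from a list that uses no measured value in its rule but was drawn up with earlier results of these data known, and matched by Ensembl identifier to GRCm38 symbols. All 42 were found among the 52636 genes of the count tables. The list holds 11 origin licensing genes, 6 genes of helicase activation, 10 genes of the polymerases, the sliding clamp and Okazaki fragment maturation, 4 genes of nucleotide supply, 3 genes of chromatin assembly and maintenance, and 8 genes of G1/S control.

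The study is a bulk RNA-seq series of mouse lung cells labelled alveolar type 2, the epithelial cells that make surfactant and divide to renew the alveolus. It asked how these cells respond when a Wnt agonist is removed and is replaced by Wnt or by agonists of the Frizzled receptors FZD5 and FZD6. There were 6 groups of 3 libraries. All 6 groups carried LGK974, a compound that blocks porcupine, the enzyme cells need to secrete their own Wnt ligands. All cells were first grown for 19 days with the Wnt agonist CHIR99201. The first group (CHIR) stayed on LGK974 with CHIR99201. In the groups 24 h withdrawal and 48 h withdrawal, CHIR99201 was removed for 24 h or 48 h and LGK974 stayed. In the groups Wnt, FZD5 agonist and FZD6 agonist, CHIR99201 was replaced by that agent in the presence of LGK974. The labels give 8 to 12 h for the treatments and do not say how this time relates to the 24 h and 48 h of withdrawal. No genotype, strain or age is given in the labels, and nothing in them ties the 3 replicates to different cultures or mice. The p-values therefore reflect only library-to-library spread, part of which could be technical.

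A eukaryotic cell licenses its replication origins in G1. The origin recognition complex, Cdc6 and Cdt1 load the ring of Mcm proteins, and geminin later blocks Cdt1 so that DNA is copied once per cycle. D-type and E-type cyclins with their kinases then inactivate RB family proteins, which frees E2F factors to switch on most of the genes described here. In canonical Wnt signalling, beta-catenin acts with TCF factors, and Ccnd1 and Mycn are textbook targets of that pathway in several tissues.

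E2F factors bind a short DNA word, and promoters were searched for it because most of the 42 genes belong to the textbook set of E2F targets. RefSeq windows on GRCm38.p6, from 250 bases before to 50 bases after a start site, were held for 33 of the 42 genes. The words searched on both strands were TTTCCCGC, TTTCGCGC, TTTGCCGC and TTTGGCGC, which can overlap each other on opposite strands. At least 1 of them was present for 15 of the 33 genes (45.5%), against 2.61% of 27025 genes with such windows. By window, 15 of 39 member windows (38.5%) held a word, against 2.27% of all 32851 windows. The word CCAAT was present for 22 of the 33 genes (66.7%), against 41.1% of all genes. The TCF words CTTTGAT and CTTTGAA were found for 1 of the 33 genes (3.03%), Fen1, against 9.88% of all genes. A match describes letters in a window and is not a measured binding site. The windows of the 4 genes with an E2F word among those whose values are given for every library are shown here 5′ to 3′ with the E2F words in capitals. They are Mcm7 (chr5:138171834-138172133, minus strand), a subunit of the Mcm ring, Cdt1 (chr8:122567765-122568064, plus strand), the licensing factor, Uhrf1 (chr17:56304063-56304362, plus strand), a maintenance factor for DNA methylation, and E2f2 (chr4:136172024-136172323, plus strand), an activating E2F factor.
Mcm7: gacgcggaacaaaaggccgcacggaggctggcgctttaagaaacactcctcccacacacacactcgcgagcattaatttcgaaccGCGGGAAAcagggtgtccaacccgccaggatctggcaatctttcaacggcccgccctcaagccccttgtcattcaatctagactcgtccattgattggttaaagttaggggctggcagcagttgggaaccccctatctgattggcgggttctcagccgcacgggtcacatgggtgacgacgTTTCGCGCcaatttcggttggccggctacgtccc
Cdt1: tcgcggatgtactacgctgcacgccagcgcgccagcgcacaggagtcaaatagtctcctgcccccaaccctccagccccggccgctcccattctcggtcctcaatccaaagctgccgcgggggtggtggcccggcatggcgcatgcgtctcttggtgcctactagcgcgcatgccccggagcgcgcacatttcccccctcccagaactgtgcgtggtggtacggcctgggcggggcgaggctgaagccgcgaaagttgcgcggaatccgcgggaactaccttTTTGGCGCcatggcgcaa
Uhrf1: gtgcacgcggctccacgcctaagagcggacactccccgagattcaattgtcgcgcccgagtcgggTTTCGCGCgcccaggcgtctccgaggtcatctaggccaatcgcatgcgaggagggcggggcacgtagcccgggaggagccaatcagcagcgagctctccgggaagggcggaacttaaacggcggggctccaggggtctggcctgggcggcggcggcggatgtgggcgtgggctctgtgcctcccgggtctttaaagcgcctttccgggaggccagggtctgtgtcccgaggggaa
E2f2: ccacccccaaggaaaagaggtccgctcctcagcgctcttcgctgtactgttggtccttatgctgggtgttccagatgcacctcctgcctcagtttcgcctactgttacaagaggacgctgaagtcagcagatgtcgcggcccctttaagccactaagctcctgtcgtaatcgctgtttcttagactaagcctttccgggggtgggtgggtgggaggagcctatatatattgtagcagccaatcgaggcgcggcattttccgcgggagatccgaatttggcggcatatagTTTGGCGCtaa
The words begin at bases 86 and 267 of the Mcm7 window, at base 283 of the Cdt1 window, at base 66 of the Uhrf1 window and at base 290 of the E2f2 window.

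The libraries held 31509607 to 52030066 gene counts, and all 42 genes passed the filter on low counts, among 16497 genes tested. Levels are given as CPM, the counts of a gene relative to its library's total on sizes scaled by the TMM method. Sftpc, the defining surfactant gene of alveolar type 2 cells, stood at 36668 to 144814 CPM in the 18 libraries. Of the other type 2 markers, Sftpb was at 1029 to 6909, Sftpa1 at 3059 to 18221 and Slc34a2 at 2040 to 10657 CPM. Abca3 was at 190 to 1700, Lamp3 at 104 to 1539, Napsa at 352 to 2632 and Lyz2 at 171 to 2011 CPM. Etv5 was at 28.2 to 371 and Nkx2-1 at 101 to 647 CPM. In 24 h withdrawal 2, Sftpc was highest and Sftpa1, Lamp3, Etv5, Lyz2 and Slc34a2 were lowest. CHIR 1 held the lowest Sftpb, Abca3 and Nkx2-1. The endothelial markers Cdh5 and Kdr and the mesenchymal marker Col3a1 were at 0 in all 18, and the leukocyte marker Ptprc was at 0 in 15 and reached 0.0729 CPM. Not every marker of these cell types was absent. Cd68, another leukocyte marker, ranged from 0.0705 to 13.5 CPM. Of the mesenchymal markers, Col1a1 reached 0.441 and Pdgfrb 0.273 CPM, and endothelial Pecam1 reached 0.119 CPM. Trp63, a marker of airway basal cells, was at 0 in 16 libraries, and FZD6 agonist 1 held its highest level, 8.00 CPM. 3 libraries stood apart from the other 15: CHIR 3, 24 h withdrawal 2 and FZD6 agonist 1 had 1, 4 and 0 counts of Xist, the RNA of the inactive X chromosome, against 251 to 812 in the others. Ddx3y, on the Y chromosome, had 62.7, 75.8 and 72.9 CPM in these 3 libraries and 34.9 to 45.8 CPM in the other 15. The airway genes Scgb1a1, Bpifa1 and Reg3g reached 50.7, 85.2 and 26.5 CPM in CHIR 3, 38.6, 41.99 and 93.0 CPM in 24 h withdrawal 2, and 79.8, 116 and 208 CPM in FZD6 agonist 1. None of these 3 genes was above 0.947 CPM elsewhere. In 24 h withdrawal 2, mitochondrial genes took 4.13% of the counts. Each result is therefore given with all 18 libraries and without those 3 (15 libraries, 16746 genes tested), a choice made after the data had been seen. The 15 were not uniform. CHIR 1, kept among them, had a median correlation with the other libraries of 0.927. That of CHIR 3 was 0.945, of 24 h withdrawal 2 0.782 and of FZD6 agonist 1 0.950.

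In the 3 libraries that stood apart, most replication genes were lower than in the other libraries of the same group. Summed over the 42 genes, the level was 2505, 2227 and 764 CPM in CHIR 1, 2 and 3. It was 1518, 511 and 1624 CPM after 24 h of withdrawal and 1044, 1202 and 1189 CPM after 48 h. With Wnt it was 1470, 1174 and 1303 CPM, with the FZD5 agonist 1375, 1715 and 1683 CPM, and with the FZD6 agonist 1093, 1911 and 1790 CPM. CHIR 1 and 2 were the highest of the 18 libraries, and the 3 libraries after 48 h lay below those of the FZD5 agonist. FZD6 agonist 1 lay within the range after 48 h. CHIR 3 was below both other CHIR libraries in 38 of the 42 genes, 24 h withdrawal 2 below both others of its group in 37, and FZD6 agonist 1 below both others of its group in 38. Ccnd2, the cyclin D2 gene, was above both others in all 3. The share of all genes below both others was not computed. Over all tested genes the mean log2 CPM was 2.91 in CHIR 3 against 2.87 and 3.07 in CHIR 1 and 2. It was 2.59 in 24 h withdrawal 2 against 3.07 and 3.09, and 2.96 in FZD6 agonist 1 against 3.07 and 3.06. Over the 42 genes it was 3.42, 1.20 and 4.03 in these 3 libraries and 4.53 to 5.29 in the others of their groups. In 24 h withdrawal 2, 9 of the 42 genes had under 3 counts and 6 had none.

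**Figure D1:**
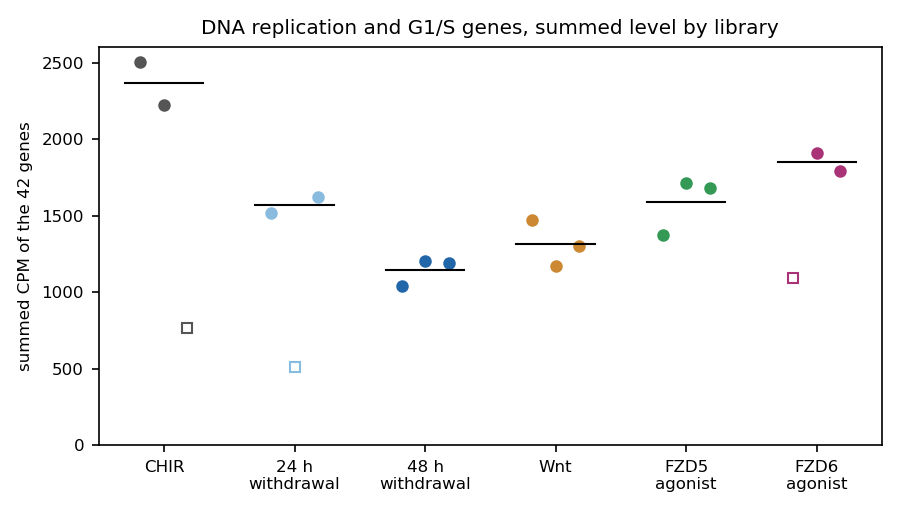
Summed level of the 42 genes in each library, in CPM on a linear axis from 0, by treatment group. Filled circles are the 15 libraries with 251 to 812 Xist counts, open squares are the 3 with 1, 4 and 0, and bars are means of the filled circles; CHIR 1 and 2 are highest at 2505 and 2227 CPM.

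With all 18 libraries, no member passed the test for any difference among the 6 groups (edgeR quasi-likelihood test, Benjamini-Hochberg adjusted p under 0.05 over all genes), where 0.649% of all genes passed. For 1 member the unadjusted p was under 0.05, and DESeq2 called 1, counts not read as results without the share of all genes. None passed in any of the 15 pairwise comparisons either. The lowest adjusted p was 0.0963, for Chaf1b after 48 h of withdrawal against CHIR. Without the 3 libraries, 34 of the 42 members differed among the 6 groups by the same edgeR test, against 20.7% of all genes. Among the 15 libraries, the mean was highest in CHIR for 36 members and lowest after 48 h of withdrawal for 35. The call thus rests on leaving out CHIR 3, 24 h withdrawal 2 and FZD6 agonist 1. In such whole-culture RNA, fewer cycling cells and less RNA per cell cannot be told apart.

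**Figure D2:**
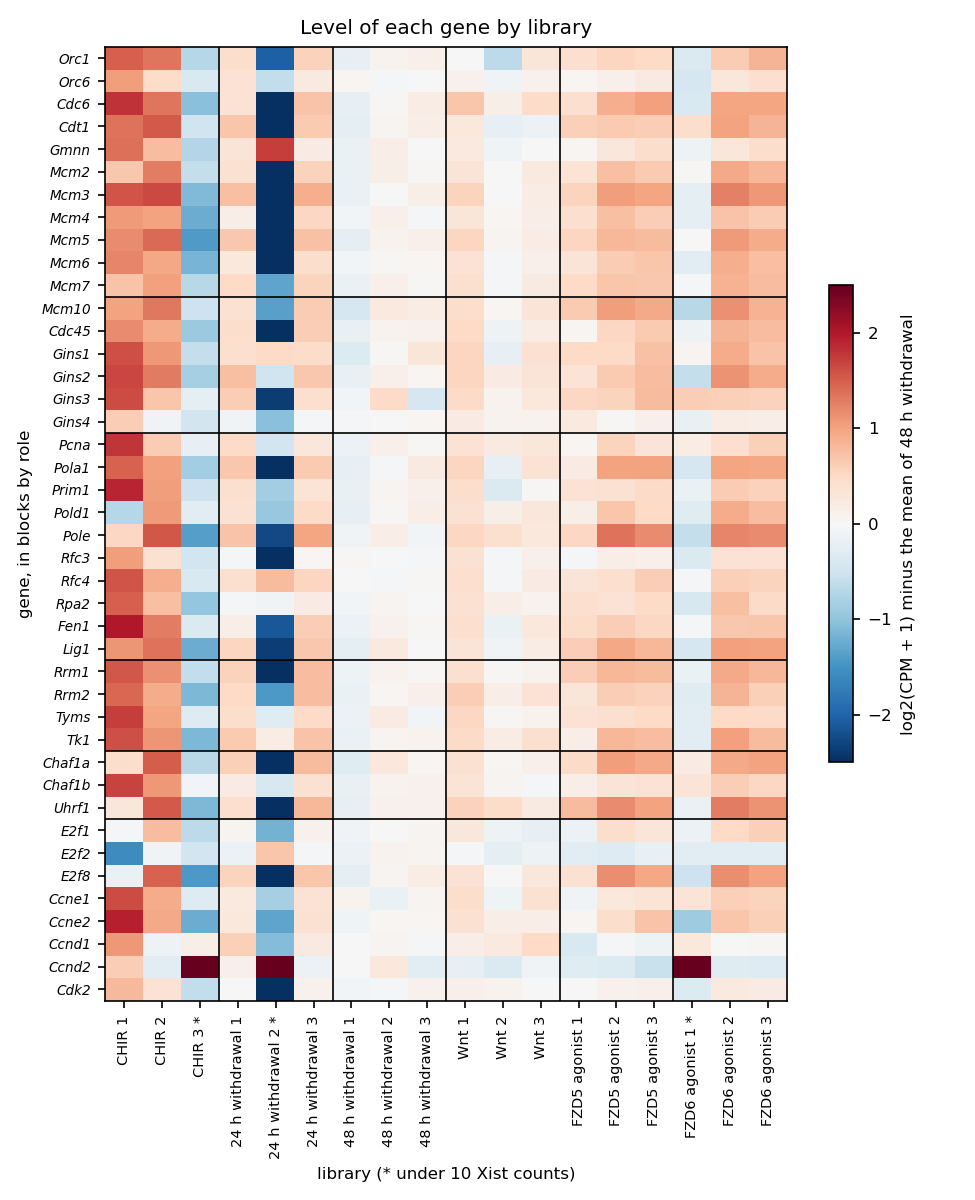
Level of each of the 42 genes in the 18 libraries, as log2(CPM + 1) minus the mean of the 3 libraries after 48 h of withdrawal, with genes in blocks by role and colours limited to 2.5 in either direction. Columns with a star are the 3 libraries with under 10 Xist counts. For most genes they are lower than the others of their groups, and they are high for Ccnd2. CHIR 1 and CHIR 2 are high for most genes.

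After 48 h without CHIR99201, replication genes of every role group were lower than with CHIR. In the 15 libraries 35 of the 42 members fell and none rose (edgeR), against a background of 17.1%, the share of all tested genes that fell. The median log2 fold change of the 42 was -1.20, against -0.00 over all genes. All 11 origin licensing genes fell, as did 5 of 6 helicase activation genes, 9 of 10 polymerase and maturation genes, all 4 nucleotide supply genes, all 3 chromatin genes and 3 of 8 G1/S control genes. The 7 that did not pass were Gins4, Pold1, E2f1, E2f2, E2f8, Ccnd1 and Ccnd2, which hold 5 of the 8 G1/S control genes. The 4 with the smallest p were Rrm1 (log2 change -1.35 ± 0.15 SE, adjusted p = 3.6e-05 by edgeR), Gins2 (log2 change -1.57 ± 0.17 SE, adjusted p = 3.75e-05 by edgeR), Cdt1 (log2 change -1.48 ± 0.16 SE, adjusted p = 3.81e-05 by edgeR) and Mcm3 (log2 change -1.61 ± 0.18 SE, adjusted p = 3.83e-05 by edgeR). In the test of all 18 libraries the median was -0.80, and 41 of 42 fold changes were below 0, where 47.6% of all genes were above 0. No member passed there (background 1.49%). An unadjusted p under 0.05 was found for 7 (background 16.5%), and DESeq2 called 1, which was lower (8.94% of all genes in either direction). Leaving out any 1 of the 15 libraries left 35 or 36 that fell, and without CHIR 2 another 2 rose, where 24.2% of all genes fell and 28.6% rose.

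Of the origin licensing genes, Cdt1, which brings the Mcm ring to origins, was at 36.1, 40.9 and 9.23 CPM in CHIR 1, 2 and 3, at 22.5, 0.247 and 22.04 after 24 h of withdrawal and at 11.4, 14.3 and 15.2 after 48 h, with libraries in replicate order. It was at 16.6, 11.6 and 12.1 CPM with Wnt, 20.9, 21.96 and 21.3 with the FZD5 agonist and 18.7, 28.3 and 25.2 with the FZD6 agonist. CHIR 1 and 2 lay above the 16 other libraries, and the 3 libraries after 48 h lay below all 3 of the FZD5 agonist. Gmnn encodes geminin, the inhibitor of Cdt1. Gmnn was at 36.2, 23.3 and 7.54 CPM in CHIR, 16.7, 46.1 and 15.4 after 24 h and 11.6, 14.9 and 13.4 after 48 h, then 15.8, 12.2 and 13.2 with Wnt, 13.7, 16.3 and 18.4 with the FZD5 agonist and 12.1, 16.3 and 18.2 with the FZD6 agonist. Its highest value was in 24 h withdrawal 2, a library in which 9 members had under 3 counts. The Mcm ring is the core of the replicative helicase. Mcm2 was at 83.02, 126 and 33.7 CPM in CHIR, 67.3, 0.740 and 77.7 after 24 h and 45.8, 57.1 and 52.5 after 48 h, then 64.4, 52.2 and 60.9 with Wnt, 65.2, 87.9 and 81.8 with the FZD5 agonist and 52.6, 99.8 and 92.4 with the FZD6 agonist. Mcm7 was at 27.6, 34.7 and 9.89 CPM in CHIR, 23.6, 6.06 and 24.8 after 24 h and 14.7, 18.1 and 16.9 after 48 h, then 21.96, 16.1 and 19.6 with Wnt, 23.6, 27.5 and 26.8 with the FZD5 agonist and 15.9, 31.2 and 28.9 with the FZD6 agonist. For Mcm2 and Mcm7 CHIR 2 was above CHIR 1, and the FZD6 agonist 2 library was above CHIR 1, so CHIR overlapped the FZD6 agonist. The remaining ring genes Mcm3, Mcm4, Mcm5 and Mcm6 had CHIR 1 and 2 above all other libraries. Orc6, a small subunit of the origin recognition complex, was at 40.2, 26.5 and 14.3 CPM in CHIR, 24.7, 11.9 and 22.1 after 24 h and 19.6, 18.3 and 18.7 after 48 h, then 20.3, 17.6 and 20.4 with Wnt, 19.5, 20.8 and 22.2 with the FZD5 agonist and 13.8, 22.99 and 25.6 with the FZD6 agonist. Its log2 fold change after 48 h was -0.80 ± 0.16 SE on the log2 scale (adjusted p = 0.002 by edgeR), and those of the licensing genes ranged from -1.70 for Cdc6 to -0.80 for Orc6.

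Mcm10, Cdc45 and the 4 GINS subunits turn the loaded ring into a running helicase. Gins2 was at 35.9, 27.5 and 5.45 CPM in CHIR, 18.5, 7.19 and 17.5 after 24 h and 9.18, 11.7 and 10.9 after 48 h, then 15.7, 12.3 and 13.3 with Wnt, 13.6, 17.2 and 18.6 with the FZD5 agonist and 6.68, 23.99 and 21.1 with the FZD6 agonist. CHIR 1 and 2 lay above all other libraries, and all 3 Wnt libraries lay above the 3 after 48 h. Mcm10 was at 21.6, 26.9 and 6.79 CPM in CHIR, 13.7, 3.38 and 16.3 after 24 h and 7.36, 12.2 and 11.7 after 48 h, then 14.2, 10.6 and 12.97 with Wnt, 16.7, 22.1 and 20.6 with the FZD5 agonist and 5.98, 23.7 and 19.6 with the FZD6 agonist. CHIR 1 overlapped the FZD5 agonist and FZD6 agonist libraries for Mcm10. Gins1, which was near the low end of the 42 genes, was at 8.97, 5.93 and 1.15 CPM in CHIR, 3.28, 3.59 and 3.51 after 24 h and 1.58, 2.34 and 3.01 after 48 h, then 3.70, 1.85 and 3.22 with Wnt, 3.57, 3.59 and 4.44 with the FZD5 agonist and 2.43, 5.20 and 4.31 with the FZD6 agonist. For Gins1 the fold change after 48 h was -1.67 ± 0.31 SE on the log2 scale (adjusted p = 0.00128 by edgeR). Gins4 was at 27.8 to 45.4 CPM in the 15 libraries and did not pass after 48 h (log2 change -0.30 ± 0.16 SE, adjusted p = 0.184 by edgeR), while Gins1, Gins2 and Gins3 did.

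Among the fork enzymes, Pcna encodes the sliding clamp and Prim1 the catalytic subunit of primase. Pcna was at 12.6, 5.09 and 2.40 CPM in CHIR, 4.48, 1.80 and 3.80 after 24 h and 2.53, 3.29 and 2.98 after 48 h, then 4.06, 3.59 and 3.74 with Wnt, 3.08, 4.74 and 3.91 with the FZD5 agonist and 3.44, 4.25 and 4.89 with the FZD6 agonist. CHIR 1 held 2.47 times the level of CHIR 2, the largest such ratio among the 42 genes. The level of Pcna per kilobase of gene width, 2.94 CPM over the 15 libraries, ranked 36 of 42. The annotation holds the copies Pcna-ps1 and Pcna-ps2, and Pcna-ps2 had 0 to 195 counts per library, so the level of Pcna is uncertain. Prim1 was at 54.2, 29.3 and 9.28 CPM in CHIR, 18.4, 7.01 and 17.6 after 24 h and 11.9, 14.4 and 15.001 after 48 h, then 18.9, 10.5 and 13.9 with Wnt, 17.8, 18.1 and 19.5 with the FZD5 agonist and 12.2, 21.9 and 20.9 with the FZD6 agonist. Rfc4, a subunit of the clamp loader, was at 60.4, 37.7 and 14.8 CPM in CHIR, 26.2, 34.7 and 28.6 after 24 h and 19.5, 19.1 and 20.1 after 48 h, then 26.4, 18.9 and 22.8 with Wnt, 24.7, 26.5 and 30.6 with the FZD5 agonist and 18.97, 30.2 and 29.4 with the FZD6 agonist. For Prim1 and Rfc4, CHIR 1 and 2 lay above the 16 other libraries. The flap nuclease gene Fen1 had the largest fold change of the 42 after 48 h (log2 change -1.94 ± 0.25 SE, adjusted p = 0.000131 by edgeR). Pold1, the catalytic subunit of polymerase delta, was at 34.9 CPM in CHIR 1 and 122 CPM in CHIR 2, the lowest ratio of CHIR 1 to CHIR 2 among the 42 genes, at 0.286.

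Ribonucleotide reductase, formed by Rrm1 and Rrm2, makes the deoxynucleotides, and Tyms and Tk1 supply thymidine nucleotides. Rrm2 and Rrm1 held the highest mean levels per kilobase of the 42 genes, 46.6 and 40.6 CPM per kilobase. Rrm1 was at 304, 229 and 67.2 CPM in CHIR, 155, 10.6 and 178 after 24 h and 95.05, 109 and 106 after 48 h, then 137, 105 and 111 with Wnt, 159, 185 and 179 with the FZD5 agonist and 91.6, 199 and 185 with the FZD6 agonist. Rrm2 was at 187, 131 and 30.8 CPM in CHIR, 96.9, 24.7 and 117 after 24 h and 60.6, 70.9 and 74.7 after 48 h, then 106, 76.6 and 87.7 with Wnt, 85.3, 106 and 103 with the FZD5 agonist and 55.4, 124 and 105 with the FZD6 agonist. In both genes CHIR 1 and 2 lay above the other 16 libraries, and the FZD5 agonist libraries all lay above those after 48 h. Tyms was at 78.6, 46.6 and 18.3 CPM in CHIR, 31.8, 18.7 and 32.5 after 24 h and 20.8, 26.96 and 22.1 after 48 h, then 33.8, 23.7 and 24.5 with Wnt, 30.01, 31.03 and 33.3 with the FZD5 agonist and 18.8, 33.2 and 32.5 with the FZD6 agonist. The copy Tyms-ps had 17 to 96 counts per library, so the split of reads between them is uncertain. Tk1 was at 44.4, 31.04 and 5.80 CPM in CHIR, 22.3, 15.8 and 23.5 after 24 h and 12.2, 14.6 and 14.8 after 48 h, then 19.8, 15.9 and 18.6 with Wnt, 15.6, 25.5 and 24.5 with the FZD5 agonist and 11.4, 29.3 and 24.8 with the FZD6 agonist. After 48 h, Tyms changed by -1.41 ± 0.20 SE on the log2 scale (adjusted p = 0.000254 by edgeR) and Tk1 by -1.42 ± 0.21 SE on the log2 scale (adjusted p = 0.000261 by edgeR).

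Chaf1a and Chaf1b are subunits of the histone chaperone CAF-1, which loads nucleosomes on new DNA. Chaf1a was at 31.2, 66.3 and 13.6 CPM in CHIR, 34.95, 0.247 and 39.8 after 24 h and 18.3, 27.3 and 23.3 after 48 h, then 29.7, 23.5 and 24.98 with Wnt, 31.8, 47.8 and 44.8 with the FZD5 agonist and 26.3, 44.6 and 46.5 with the FZD6 agonist. Chaf1b was at 65.7, 42.4 and 18.6 CPM in CHIR, 22.8, 14.5 and 25.7 after 24 h and 16.98, 20.9 and 21.1 after 48 h, then 25.01, 20.5 and 18.97 with Wnt, 22.1, 24.7 and 25.5 with the FZD5 agonist and 24.8, 30.3 and 28.5 with the FZD6 agonist. CHIR 1 was below CHIR 2 for Chaf1a and above it for Chaf1b, so the pair did not keep the same order within CHIR. Uhrf1, which recruits the maintenance DNA methyltransferase, was at 11.8, 29.4 and 3.83 CPM in CHIR, 13.1, 0.0352 and 17.8 after 24 h and 8.06, 10.3 and 10.3 after 48 h, then 14.7, 13.5 and 11.3 with Wnt, 17.1, 22.7 and 19.99 with the FZD5 agonist and 8.36, 24.3 and 21.8 with the FZD6 agonist. CHIR 1 overlapped the Wnt libraries for Uhrf1, and the 2 remaining FZD6 agonist libraries were above CHIR 1. Across all 42 genes, 28 were higher and 14 lower in CHIR 1 than in CHIR 2.

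Of the 8 G1/S control genes, Ccne1, Ccne2 and Cdk2 fell after 48 h. Ccne1 and Ccne2 encode the E-type cyclins that drive Cdk2 at the start of S phase. Ccne1 was at 35.4, 21.1 and 8.36 CPM in CHIR, 12.8, 5.57 and 13.98 after 24 h and 11.5, 9.37 and 11.3 after 48 h, then 14.9, 9.89 and 14.2 with Wnt, 9.99, 13.1 and 13.8 with the FZD5 agonist and 13.7, 16.6 and 16.2 with the FZD6 agonist. Ccne2 was at 41.99, 20.7 and 3.71 CPM in CHIR, 12.4, 3.52 and 13.6 after 24 h and 9.45, 10.6 and 10.7 after 48 h, then 13.7, 11.6 and 11.6 with Wnt, 10.6, 14.1 and 17.4 with the FZD5 agonist and 5.07, 17.2 and 15.8 with the FZD6 agonist. Both had CHIR 1 and 2 above the 16 others. Their changes after 48 h were -1.38 ± 0.23 SE on the log2 scale (adjusted p = 0.000607 by edgeR) for Ccne1 and -1.60 ± 0.25 SE on the log2 scale (adjusted p = 0.000456 by edgeR) for Ccne2, and that of their kinase Cdk2 was -0.59 ± 0.13 SE on the log2 scale (adjusted p = 0.00387 by edgeR). Ccnd1, cyclin D1, was at 233, 100.1 and 121 CPM in CHIR, 167, 51.2 and 129 after 24 h and 108, 114 and 106 after 48 h, then 123, 129 and 156 with Wnt, 83.3, 107 and 99.8 with the FZD5 agonist and 131, 110.2 and 112 with the FZD6 agonist. CHIR 1 and CHIR 2 lay on either side of the libraries after 48 h, and the difference did not pass (log2 change -0.59 ± 0.26 SE, adjusted p = 0.1 by edgeR). Ccnd2 was at 5.83, 2.67 and 38.02 CPM in CHIR, 3.87, 39.8 and 3.04 after 24 h and 3.45, 4.39 and 2.70 after 48 h, then 2.86, 2.49 and 3.19 with Wnt, 2.62, 2.52 and 2.05 with the FZD5 agonist and 67.6, 2.61 and 2.58 with the FZD6 agonist. In the 15 libraries it had the lowest level per kilobase of the 42 genes, 0.466 CPM per kilobase, and it was at 38.0 CPM or more only in the 3 libraries that stood apart.

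E2f1 and E2f2 encode activating E2F factors, and E2f8 a repressing one. E2f1 was at 34.7, 61.4 and 22.1 CPM in CHIR, 37.3, 15.1 and 38.5 after 24 h and 33.5, 35.9 and 37.2 after 48 h, then 43.4, 32.4 and 30.6 with Wnt, 32.2, 48.8 and 44.2 with the FZD5 agonist and 31.9, 50.8 and 54.3 with the FZD6 agonist. CHIR 1 lay within the range of the libraries after 48 h and CHIR 2 above it. E2f2 was at 21.1, 60.7 and 46.4 CPM in CHIR, 58.2, 105 and 62.8 after 24 h and 58.1, 69.01 and 67.8 after 48 h, then 63.7, 55.3 and 59.04 with Wnt, 52.9, 51.3 and 56.9 with the FZD5 agonist and 53.3, 53.03 and 54.1 with the FZD6 agonist. It was the only member whose mean over the 15 libraries was highest after 48 h and lowest in CHIR, and this rested on CHIR 1, since CHIR 2 lay within the range after 48 h. Its difference did not pass (log2 change 0.69 ± 0.29 SE, adjusted p = 0.094 by edgeR). E2f8 was at 9.66 CPM in CHIR 1 and 32.5 CPM in CHIR 2, and at 9.11, 11.6 and 12.7 CPM after 48 h. Of the libraries after 48 h, 1 lay below both CHIR 1 and CHIR 2, and the other two lay between them.

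**Figure D3:**
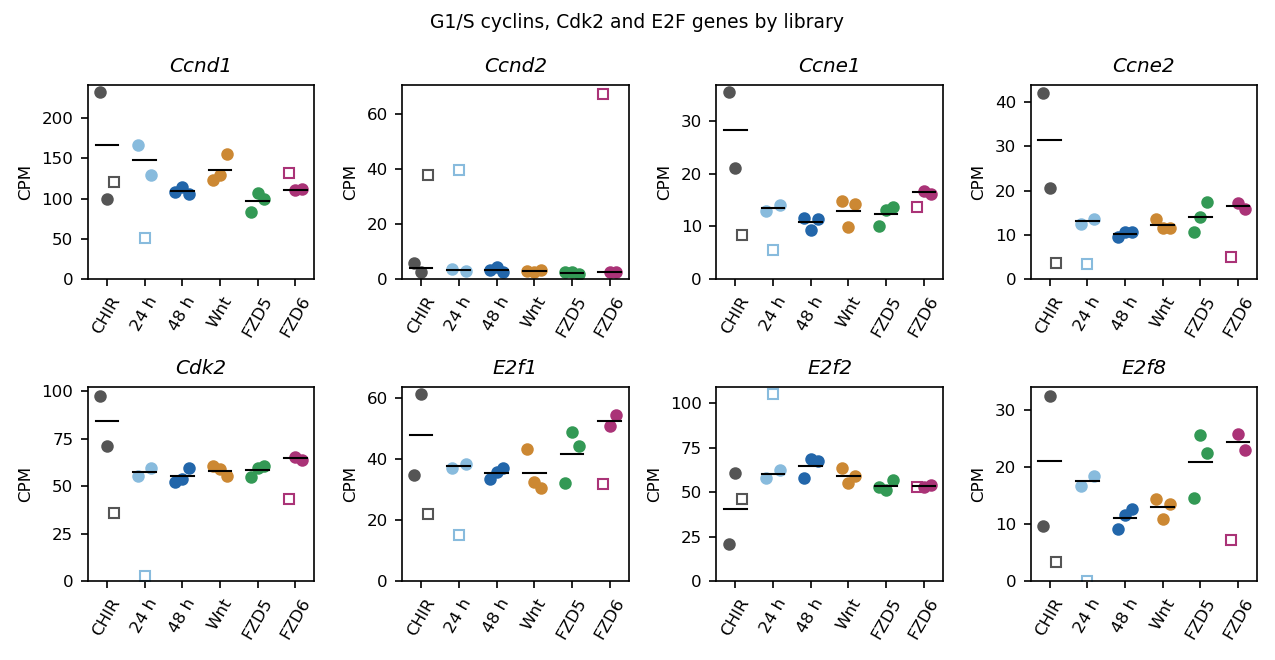
CPM of the 8 G1/S control genes in each library, on linear axes from 0, by group, with filled circles for the 15 libraries, open squares for the 3 with under 10 Xist counts and bars for the mean of the filled circles. Ccne1 and Ccne2 are highest in CHIR 1 and CHIR 2, and Ccnd2 is at 38.0, 39.8 and 67.6 CPM in the 3 open squares and at 2.05 to 5.83 CPM elsewhere.

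At 24 h most members stood between the levels of CHIR and 48 h. Over the 15 libraries the 24 h mean of 40 of the 42 lay between the means of those groups, and that of Gins4 and Ccnd2 lay below both. In the 15 libraries 18 of the 42 fell against CHIR (edgeR, background 2.94%), with a median log2 fold change of -0.69 against 0.02 over all genes. Those with the smallest p were Chaf1b (log2 change -1.15 ± 0.20 SE, adjusted p = 0.0118 by edgeR), Rpa2 (log2 change -1.10 ± 0.21 SE, adjusted p = 0.0186 by edgeR), Fen1 (log2 change -1.43 ± 0.28 SE, adjusted p = 0.021 by edgeR) and Mcm4 (log2 change -0.69 ± 0.15 SE, adjusted p = 0.0259 by edgeR). Rpa2 is a subunit of the protein that coats single-stranded DNA. The 18-library test called none (background 0%), 4 had an unadjusted p under 0.05 (background 17%), and DESeq2 called 0. The count of 18 depended on single libraries. It was 0 without 24 h withdrawal 1 or without 24 h withdrawal 3, 6 without FZD6 agonist 2 or 3, 8 without Wnt 3, 9 without 48 h withdrawal 3, 10 without CHIR 1, and 11 without FZD5 agonist 2 or 3. Without CHIR 2, 31 fell and 3 rose, where 20.5% of all genes fell and 25.3% rose. In the other steps just named 0.0397% to 1.74% of all genes fell. Where such a step left 1 library in a group, that library was taken to vary like the other groups.

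Between 24 h and 48 h, 6 members fell further in the 15 libraries (edgeR, background 3.51%), namely Mcm3 (log2 change -0.83 ± 0.18 SE, adjusted p = 0.0159 by edgeR), Rrm1 (log2 change -0.68 ± 0.15 SE, adjusted p = 0.017 by edgeR), Mcm5 (log2 change -0.70 ± 0.16 SE, adjusted p = 0.0199 by edgeR), Gins2 (log2 change -0.75 ± 0.17 SE, adjusted p = 0.0222 by edgeR), Cdt1 and Lig1. The median was -0.50 against -0.02 over all genes, and the 2 libraries left at 24 h lay above all 3 at 48 h in 35 of 42 members (background 25.5%). Over the 18 libraries the median was -0.10, no member passed (background 0.00606%), none had an unadjusted p under 0.05 (background 18%), and DESeq2 called 0. Without 24 h withdrawal 1, 24 h withdrawal 3 or 48 h withdrawal 1 the count was 0. It was 3 without 48 h withdrawal 3, 17 without CHIR 2 and 18 without CHIR 1, where 8.57% and 9.5% of all genes fell in the last 2 steps.

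With the FZD5 agonist, a set of replication genes was higher than after 48 h of withdrawal. Neither of these groups held a library that stood apart. In the 15 libraries 13 of the 42 rose and none fell (edgeR), against 3.18% of all genes that rose. They were Cdc6, Cdt1, Mcm3, Mcm4, Mcm5, Mcm6, Mcm7, Mcm10, Gins2, Pole, Lig1, Rrm1 and Uhrf1, of which 7 are licensing genes and none is a G1/S control gene. The smallest p were for Rrm1 (log2 change 0.76 ± 0.13 SE, adjusted p = 0.00612 by edgeR), Lig1, the ligase that joins Okazaki fragments (log2 change 0.83 ± 0.15 SE, adjusted p = 0.00665 by edgeR), Mcm3 (log2 change 0.89 ± 0.16 SE, adjusted p = 0.00718 by edgeR) and Mcm5 (log2 change 0.74 ± 0.14 SE, adjusted p = 0.0107 by edgeR). The median of the 42 was 0.59 against 0.02 over all genes. All 3 FZD5 agonist libraries lay above all 3 after 48 h in 27 members, against 16.9% of all genes. In a test of these 6 libraries alone 24 members were called, all higher (edgeR, 13% of all genes in either direction). In the test of all 18 libraries the median was 0.58, no member passed (background 0%), none had an unadjusted p under 0.05 (background 2.38%), and DESeq2 called 0. The count of 13 was 3 without 48 h withdrawal 1 or FZD5 agonist 2, 5 without FZD5 agonist 3, 6 without 48 h withdrawal 3, and 7 without 48 h withdrawal 2, where 1.38% to 1.7% of all genes rose. Without CHIR 1 or without CHIR 2, 26 rose and 1 fell, where 8.86% and 8.02% of all genes rose.

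With the FZD6 agonist, 17 members rose against 48 h of withdrawal in the 15 libraries and none fell (edgeR, background 2.81%). These were the 13 that rose with the FZD5 agonist together with Mcm2, Cdc45, Rrm2 and Tk1. Both comparisons share the 48 h libraries, and the 17 are also among the 35 that fell after 48 h. The smallest p were for Mcm3 (log2 change 1.18 ± 0.18 SE, adjusted p = 0.00248 by edgeR), Mcm5 (log2 change 1.02 ± 0.16 SE, adjusted p = 0.00309 by edgeR), Gins2 (log2 change 1.10 ± 0.17 SE, adjusted p = 0.00341 by edgeR) and Lig1 (log2 change 1.03 ± 0.16 SE, adjusted p = 0.00356 by edgeR). The median of the 42 was 0.84 against -0.01 over all genes, and FZD6 agonist 2 and 3 lay above all 3 libraries after 48 h in 39 members (background 24.8%). FZD6 agonist 1 did not, being at or below the highest library after 48 h in 35 members, a count whose share over all genes was not computed. When all 18 libraries were tested the median was 0.58, no member passed (background 0.0121%), 1 had an unadjusted p under 0.05 (background 4.04%), and DESeq2 called 0. The count of 17 was 0 without FZD6 agonist 2, 8 without FZD6 agonist 3, 9 without 48 h withdrawal 1, and 11 without 48 h withdrawal 3, where 0.594% to 1.56% of all genes rose. It was 34 without CHIR 1 or CHIR 2, where 7.42% and 7.18% of all genes rose.

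Wnt itself gave no call against 48 h of withdrawal. Without the 3 libraries 0 members passed (edgeR, background 0%), 3 had an unadjusted p under 0.05 (background 3.22%), and DESeq2 called 0. The median of the 42 was 0.24 against 0.01 over all genes, 38 fold changes were above 0 (background 52.8%), and the 3 Wnt libraries lay above all 3 after 48 h in 10 members (background 7.44%). Cdc6, which loads the Mcm ring, had the largest fold change (log2 change 0.51 ± 0.22 SE, adjusted p = 1 by edgeR), and Ccnd1 had one of 0.33 ± 0.23 SE on the log2 scale (adjusted p = 1 by edgeR). The 18-library test called no member (background 0%), none had an unadjusted p under 0.05 (background 0.212%), and DESeq2 called 0. In the 6 libraries of these groups alone none passed (background 0%). There 11 had an unadjusted p under 0.05, and without the share of all genes beside it this count is not read as a result.

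**Figure D4:**
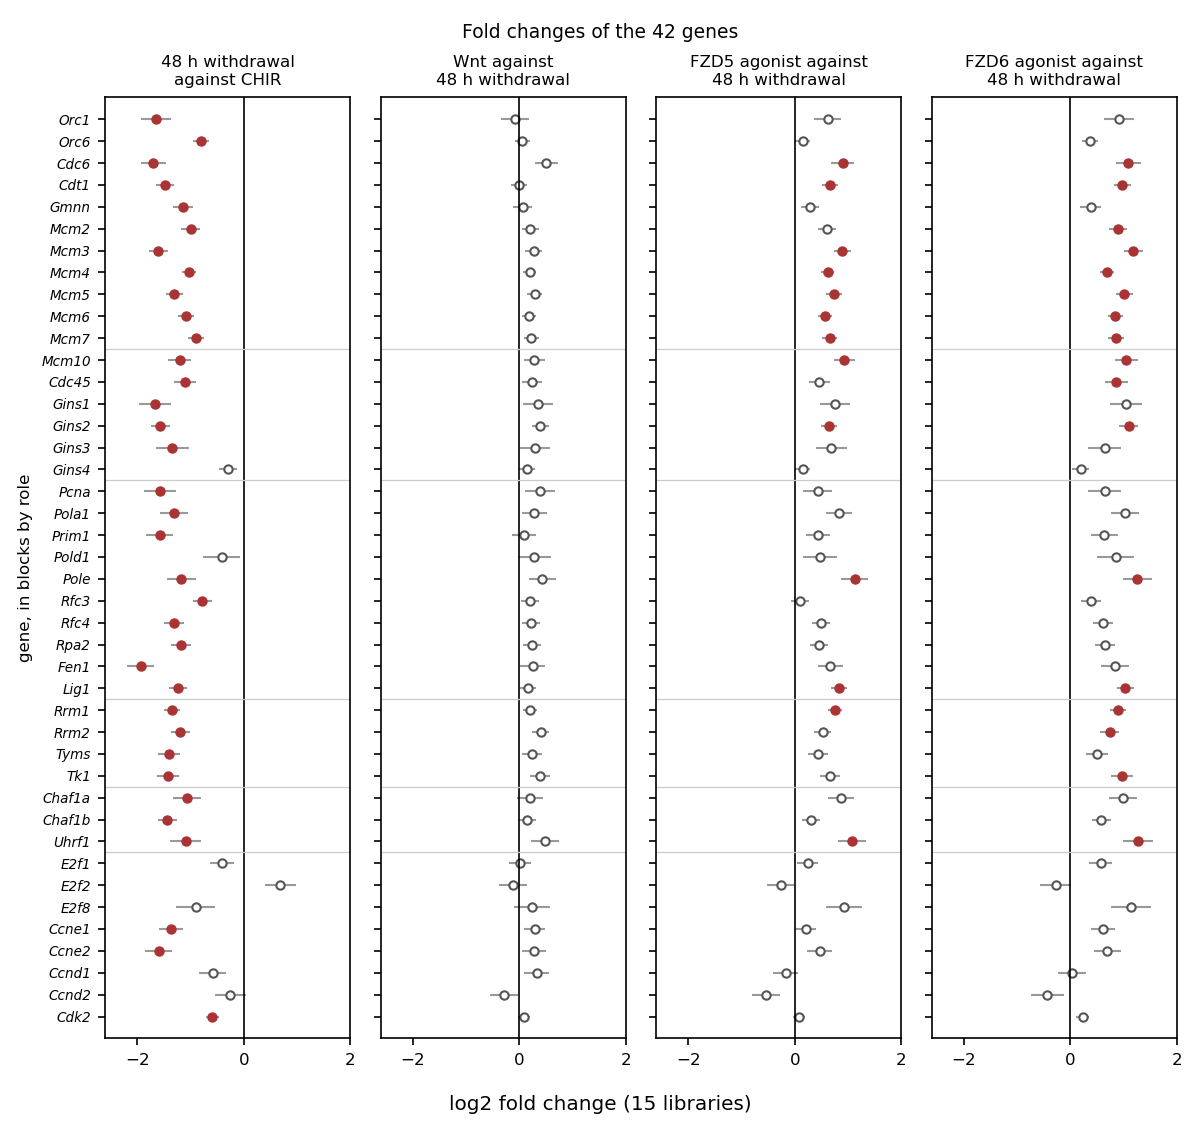
Log2 fold change of each of the 42 genes with its SE, from the test of 15 libraries, in 4 comparisons, with genes in blocks by role; filled red points passed the edgeR test and open points did not. After 48 h of withdrawal 35 genes fell against CHIR, and against 48 h of withdrawal 0 passed with Wnt, 13 rose with the FZD5 agonist and 17 rose with the FZD6 agonist.

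The agonists were also set against Wnt directly. Of the 42 members 4 were higher with the FZD5 agonist than with Wnt (edgeR, 15 libraries, background 2.57%), Lig1 (log2 change 0.67 ± 0.15 SE, adjusted p = 0.024 by edgeR), Cdt1 (log2 change 0.67 ± 0.15 SE, adjusted p = 0.0237 by edgeR), Rrm1 (log2 change 0.56 ± 0.13 SE, adjusted p = 0.0316 by edgeR) and Mcm3 (log2 change 0.62 ± 0.16 SE, adjusted p = 0.0466 by edgeR). With the FZD6 agonist 8 were higher than with Wnt (edgeR, background 1.82%), those 4 with Mcm5, Mcm6, Mcm7 and Gins2, and Cdt1 had the smallest p (log2 change 0.99 ± 0.16 SE, adjusted p = 0.00633 by edgeR). The medians of the 42 were 0.31 and 0.57 against 0.02 and -0.00 over all genes. No member passed in either comparison when all 18 libraries were tested (background 0% for both), and DESeq2 called 0 in both. Unadjusted p under 0.05 were found for 0 members with the FZD5 agonist (background 2.5%) and 1 with the FZD6 agonist (background 3.67%). In the FZD5 agonist and Wnt libraries alone 9 members were called, 8 higher and 1 lower (edgeR, 13.1% of all genes in either direction). The count of 4 was 0 without Wnt 2, Wnt 3, FZD5 agonist 2 or FZD5 agonist 3, 2 without 48 h withdrawal 3 or FZD6 agonist 2 or 3. Without CHIR 1 or 2, 14 were higher and 1 lower, where 8.74% and 8.27% of all genes were higher. The count of 8 was 0 without FZD6 agonist 2, 1 without Wnt 2 or FZD6 agonist 3, 2 without Wnt 3, 23 without CHIR 1 and 24 without CHIR 2, where 6.61% and 6.69% of all genes were higher in the last 2 steps.

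The FZD5 and FZD6 agonists did not differ in any member (edgeR, 15 libraries, background 0%), with 1 unadjusted p under 0.05 (background 1.47%) and 0 calls by DESeq2. The median log2 fold change of FZD5 against FZD6 agonist was -0.21, against 0.01 over all genes, and 40 of 42 values were below 0, where 51.8% of all genes were above 0. FZD6 agonist 2 and 3 lay above all 3 FZD5 agonist libraries in 20 members (background 9.04%). The 18-library median was 0.03, no member passed (background 0%), and DESeq2 called 0. There 1 had an unadjusted p under 0.05, a count not read as a result without the share of all genes. A p that misses the threshold does not show that the agonists act alike.

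No member passed for either agonist against 24 h of withdrawal. By edgeR in the 15 libraries 0 members passed with the FZD5 agonist (background 0.173%), where the median log2 fold change was 0.08 against 0.01 over all genes and 1 unadjusted p was under 0.05 (background 8.84%). With the FZD6 agonist 0 passed (background 0.0478%), the median was 0.32 against -0.00 over all genes and 5 unadjusted p were under 0.05 (background 5.35%). In that comparison 39 of 42 fold changes were above 0 (background 49.5%), and FZD6 agonist 2 and 3 lay above both 24 h libraries in 34 members (background 21.7%). With the FZD5 agonist 29 were above 0 (background 51.3%). When 1 of the 15 libraries was left out, 1 member was lower with the FZD5 agonist without CHIR 1 or without CHIR 2, and 1 was higher with the FZD6 agonist without CHIR 2. DESeq2 called 0 in both. Wnt had 1 member lower than at 24 h, Cdt1 (log2 change -0.71 ± 0.16 SE, adjusted p = 0.0319 by edgeR) (background 1.86%), and DESeq2 called 1 (background 7.16%). That call was lost without 24 h withdrawal 1 or 3, Wnt 2 or 3, FZD5 agonist 3, or FZD6 agonist 2 or 3, and the count was 2 without Wnt 1 and 3 without CHIR 1 or 2 (6.85% and 6.54% of all genes lower). None passed over the 18 libraries for Wnt (background 0.0303%), the FZD5 agonist (background 0.00606%) or the FZD6 agonist (background 0%). DESeq2 called 0 for each. Unadjusted p under 0.05 were found for 0, 1 and 0 members, counts not read as results without the share of all genes.

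Against CHIR, 33 members were lower with Wnt (edgeR, 15 libraries, background 15.8%), 27 with the FZD5 agonist (background 12.8%) and 7 with the FZD6 agonist (background 7.06%), and none was higher. Median log2 fold changes of the 42 were -0.98, -0.66 and -0.44, against 0.01, 0.02 and 0.00 over all genes. All 3 comparisons share CHIR 1 and 2. The 7 were Gmnn, Prim1, Rfc4, Fen1, Tyms, Chaf1b and Ccne2, and among them Chaf1b had the smallest p (log2 change -0.86 ± 0.20 SE, adjusted p = 0.0175 by edgeR). Ccnd1 was among the 27 with the FZD5 agonist (log2 change -0.76 ± 0.26 SE, adjusted p = 0.0498 by edgeR). None passed over all 18 libraries with Wnt (background 1.05%), the FZD5 agonist (background 0%) or the FZD6 agonist (background 0%), and DESeq2 called 0. Of the 42, 2, 2 and 0 had an unadjusted p under 0.05 there, with backgrounds of 14.5%, 13.5% and 6.47%. The count of 27 was 14 without FZD5 agonist 1, where 7.54% of all genes were lower. It was also smaller without CHIR 1, a step that left 1 CHIR library. The count of 7 was 0 without CHIR 1, FZD6 agonist 2 or FZD6 agonist 3. Without CHIR 2, 23 were lower and 6 higher, where 21.6% of all genes were lower and 27.3% higher. It was 3 or 4 without 24 h withdrawal 1 or 3, any 1 library of 48 h withdrawal, Wnt 3, or FZD5 agonist 2 or 3.

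Other genes of the pathway were described from 3 lists. Of 20 mitosis genes, all 20 fell after 48 h against CHIR in the 15 libraries (edgeR, background 17.1%), with a median log2 fold change of -1.92. They included Bub1, a spindle checkpoint kinase (log2 change -2.30 ± 0.15 SE, adjusted p = 1.81e-06 by edgeR), Ccnb1, the mitotic cyclin B1 (log2 change -2.11 ± 0.17 SE, adjusted p = 6.37e-06 by edgeR), and Aurka, a spindle kinase (log2 change -1.96 ± 0.16 SE, adjusted p = 6.37e-06 by edgeR). Against 48 h, 0 rose with Wnt (median 0.26), and 7 had an unadjusted p under 0.05 (background 3.22%). All 20 rose with the FZD5 agonist (median 1.24, background 3.18%) and with the FZD6 agonist (median 1.36, background 2.81%). Bub1 had the smallest p of the list in both (log2 change 1.502 ± 0.14 SE, adjusted p = 0.000159 by edgeR) and (log2 change 1.61 ± 0.15 SE, adjusted p = 0.000213 by edgeR). All 20 were also higher with the FZD5 agonist and with the FZD6 agonist than with Wnt, with medians of 1.01 and 1.08 (backgrounds 2.57% and 1.82%).

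Of 42 further replication factors, 36 fell after 48 h against CHIR and 1 rose, with a median of -0.96 in the 15 libraries (edgeR, backgrounds 17.1% and 14.7%). Those that fell included the nuclease gene Exo1 (log2 change -1.79 ± 0.16 SE, adjusted p = 9.78e-06 by edgeR) and Pold2, a subunit of polymerase delta (log2 change -1.35 ± 0.13 SE, adjusted p = 1.38e-05 by edgeR). The 1 that rose was Pold4, another subunit of that polymerase (log2 change 1.22 ± 0.15 SE, adjusted p = 7.48e-05 by edgeR). Pold4 was named after its value was seen, as the only call in that direction. With the FZD5 agonist 6 of the 42 rose against 48 h (background 3.18%), led by Dbf4, which activates the kinase that fires origins (log2 change 0.76 ± 0.12 SE, adjusted p = 0.00319 by edgeR). With the FZD6 agonist 14 rose (background 2.81%), Dbf4 again with the smallest p (log2 change 0.85 ± 0.13 SE, adjusted p = 0.00319 by edgeR).

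Of 26 CDK inhibitor, RB family and other G1/S regulator genes, 25 were tested. After 48 h against CHIR 11 fell and 5 rose in the 15 libraries (edgeR, backgrounds 17.1% and 14.7%, median -0.49). Among those that fell were Ccna2, the S phase cyclin A2 (log2 change -1.69 ± 0.17 SE, adjusted p = 1.91e-05 by edgeR), and Skp2, which marks a CDK inhibitor for degradation (log2 change -1.10 ± 0.14 SE, adjusted p = 8.79e-05 by edgeR). The 5 that rose were Tfdp2, an E2F partner (log2 change 0.94 ± 0.10 SE, adjusted p = 3.81e-05 by edgeR), the RB relative Rbl2, and the CDK inhibitor genes Cdkn1b, Cdkn1c and Cdkn2b, with log2 fold changes of 0.92, 0.99 and 0.99. The CDK inhibitor genes Cdkn1a, Cdkn2c and Cdkn2d of the list went the other way. Cdkn1a was at 212 and 154 CPM in CHIR 1 and 2 and 142, 64.5 and 123 CPM after 48 h. In the same libraries Cdkn2c was at 30.4 and 37.2, then 18.8, 22.5 and 24.2 CPM. Cdkn2d was at 50.5 and 33.8, then 28.1, 27.5 and 30.9 CPM. Against 48 h, 8 of the 25 rose with the FZD5 agonist (background 3.18%) and 8 with the FZD6 agonist (background 2.81%), and none fell. They included Ccna2 (log2 change 1.33 ± 0.15 SE, adjusted p = 0.000592 by edgeR) with the FZD5 agonist and (log2 change 1.46 ± 0.17 SE, adjusted p = 0.000595 by edgeR) with the FZD6 agonist. With all 18 libraries tested, after 48 h against CHIR 1 further replication factor was lower (edgeR, background 1.49%) and 0 mitosis genes were called. The regulators had 1 gene higher, and the share of all genes higher is not given. Neither single call is read as a result about its list. Of the mitosis genes 7 had an unadjusted p under 0.05 (background 16.5%). None of the 3 lists had a call against 48 h with either agonist in that test, and the mitosis medians were -1.42 after 48 h, 1.23 with the FZD5 agonist and 0.99 with the FZD6 agonist.

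Markers of alveolar type 1 cells, the flat cells into which type 2 cells differentiate, moved with these groups. The summed level of 7 such genes was 3119 to 3909 CPM in CHIR, 4886 to 5629 after 24 h and 7052 to 7952 after 48 h in the 15 libraries. It was 6615 to 7319 with Wnt, 5046 to 6650 with the FZD5 agonist and 5700 to 5845 with the FZD6 agonist. The summed level of 7 club and airway secretory genes ran from 46.5 to 47.0 CPM in CHIR, 125 to 153 after 24 h, 525 to 658 after 48 h, 496 to 551 with Wnt, 141 to 355 with the FZD5 agonist and 154 to 212 with the FZD6 agonist. Cyp2f2 made up most of this sum, at 44.9 and 46.0 CPM in CHIR 1 and 2 and 561, 648 and 511 CPM after 48 h. Muc5b was at 0.328 and 0.595 CPM in CHIR 1 and 2 and 22.3, 7.74 and 12.6 CPM after 48 h. Scgb1a1, Scgb3a2, Scgb3a1, Bpifa1 and Reg3g stayed at 0 to 1.13 CPM in the 15 libraries. In the 15 libraries both marker sums were lowest in CHIR and highest after 48 h, the reverse of the order of most replication genes. In CHIR 3, 24 h withdrawal 2 and FZD6 agonist 1 the type 1 sums were 6978, 9328 and 7392 CPM. The airway sums there were 889, 675 and 1029 CPM, above those of every library after 48 h. The part of the marker genes in the results was not tested.

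Within the 3 libraries that stood apart, 1 from each of CHIR, 24 h withdrawal and the FZD6 agonist, there is no replicate and no test. FZD6 agonist 1 was above CHIR 3 in 39 of the 42 members, with a median log2 ratio of 0.59 on CPM + 1. In the other libraries the order was the reverse, CHIR 1 and 2 lying above FZD6 agonist 2 and 3 in 29 members (background 28.6%). 24 h withdrawal 2 was below CHIR 3 in 33 members. For these pairs of single libraries the shares over all genes were not computed.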

How the data were processed

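RNA was isolated from mouse lung cells labelled alveolar type 2 with an RNAeasy kit, and libraries were made from 0.1 µg of total RNA with a TruSeq Stranded Total RNA kit, per the labels' protocols. The authors deposited 1 table of gene counts per library, unnormalized whole numbers, per the file headers. GSNAP (aligner) and GRCm38 (build) come from the submitters' processing notes. How reads were counted, with which annotation and whether by strand, is not given in the sources used here, and gene width in the deposited tables served only for levels per kilobase. Genes overlapped by another annotated gene (20 of the 42, in 13 cases by a protein-coding gene) could hold its reads.

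Libraries were grouped by their labels into 6 groups of 3, with 31509607 to 52030066 counts each. Their number limits the precision of every comparison. Symbols came from GENCODE M21 (GRCm38), and 99.7% of 52636 genes had a symbol. Genes were filtered with filterByExpr by group, counts were scaled by TMM, and edgeR 4.0.16 in R 4.3.3 (robust glmQLFit, then glmQLFTest) was fitted over 16497 genes and 18 libraries without covariates. The threshold was a Benjamini-Hochberg adjusted p under 0.05 over all tested genes in each of 15 comparisons. For a single coefficient, SE was taken as the fitted change over the root of its F statistic. The fit was also run on simulated data with a limited spread between libraries, which does not test the libraries that stood apart. DESeq2 1.42.0, relative log expression scaling, no filter, fits of the compared groups alone, a replicate block and leaving out each library were the alternatives. Tests without 3 or 4 libraries were added after the data had been seen. CPM come from the scaling of all 18 libraries. Libraries of 1 group differed by more than sampling noise, with a chi-square of 7.08 to 1118 per degree of freedom. It was 357 between CHIR 1 and 2, the CHIR libraries kept among the 15. Between CHIR 2 and 3 it was 348, and between CHIR 1 and 3 it was 456.

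The members and lists were chosen with earlier results of these data known. Values in every library are given for the 3 members of each role group with the smallest p over the 6 groups and for 10 chosen by name. Up to 4 called members per comparison, by smallest p, are named with fold change, SE and adjusted p, and some further members were named by choice. For the other lists, up to 3 are named by smallest p. Some more genes of those lists, such as those that rose after 48 h against CHIR, were named by choice.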

Additional observations from a re-analysis of the deposited data

How the results depend on the processing

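With all 18 libraries the count of called members was 0 in all 15 comparisons and among the 6 groups, and it stayed 0 under relative log expression scaling, without the filter on low counts and with the replicate block. DESeq2 called 1 member after 48 h against CHIR and 1 among the 6 groups. Fits of the compared groups alone called 24 for the FZD5 agonist against 48 h and 9 for the FZD5 agonist against Wnt. Leaving out 1 of the 18 libraries gave 0 to 9 calls after 48 h against CHIR, 0 to 4 for Wnt against CHIR, 0 to 1 for the FZD5 agonist against CHIR and 0 to 1 among the 6 groups, each highest without CHIR 3. After 48 h against CHIR it was 1 without 24 h withdrawal 2. A count in this section with no share of all genes here or above is not read as a result about the members.

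In the orders 24 h against CHIR, 48 h against CHIR, 48 h against 24 h, FZD5 agonist and FZD6 agonist against 48 h, Wnt against 24 h, Wnt, FZD5 agonist and FZD6 agonist against CHIR, and FZD5 agonist and FZD6 agonist against Wnt, the counts with 15 libraries were 18, 35, 6, 13, 17, 1, 33, 27, 7, 4 and 8, the same under relative log expression scaling. Among the 6 groups both gave 34. DESeq2 gave 25, 36, 10, 17, 24, 1, 34, 28, 11, 6 and 12, and 36 among the 6 groups. A fit of 14 libraries, also without CHIR 1, whose median correlation with the others was under 0.96, gave 10, 36, 18, 27, 34, 3, 34, 10, 0, 15 and 23, 35 among the 6 groups and 1 for the FZD5 agonist against 24 h. A term for the 3 libraries with under 10 Xist counts, with all 18 kept, left 13 after 48 h against CHIR, 8 for Wnt against CHIR, 3 among the 6 groups and 0 elsewhere.

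The replicate block in the 15 libraries gave 9, 35, 4, 13, 14, 0, 33, 24, 0, 2 and 2, and 31 among the 6 groups. The numbers were not taken as pairing: 4 of 45 same-numbered pairs correlated above 0.1 (range -0.52 to 0.47), and 5 of 18 libraries correlated best with their own number.

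Fold changes that turned direction in the 18-library test did so without 1 library. Over the tests without 1 library, the log2 fold change of 48 h against 24 h ran from -0.84 to 0.25 for Mcm3, -0.69 to 0.33 for Rrm1 and -0.71 to 0.29 for Mcm5, and that of Wnt against 24 h from -0.73 to 0.28 for Cdt1. Each was lowest without 24 h withdrawal 2. Without 24 h withdrawal 1 they were 0.10, 0.15, 0.23 and 0.28, and without 24 h withdrawal 3 they were 0.25, 0.33, 0.29 and 0.25. That of the FZD6 agonist against CHIR for Gmnn ran from -0.94 without CHIR 3 to 0.014 without CHIR 1. 24 h withdrawal 2 and CHIR 3, which stood apart, were kept wherever the direction turned, and the cause was not tested. With 3 libraries a group, or 2 where 1 was left out, the number of libraries limits what these tests can call.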
